A study of Mus musculus with 12 samples.

Results

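The proteins of the cytosolic ribosome were measured here by 34 genes, of 8251 genes that a probe set with a single annotated symbol named on the array. Members were all genes whose symbol begins with Rpl or Rps and a digit, or with Rplp, without the S6 kinases (Rps6k). Of these genes, 17 encode small-subunit and 17 large-subunit proteins or their close paralogs, read by 48 probe sets. Where a gene had several probe sets, as 10 genes did, the one with the highest mean over all arrays was used. After a filter on dim signal 24 members were tested, 13 of the small and 11 of the large subunit.

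RNA came from mouse hippocampus and was read on 12 Affymetrix MG-U74Av2 arrays, 1 per pool of animals. The transgene, VP16-CREB, joins the strong viral activation domain VP16 to the transcription factor CREB, and a doxycycline (dox) switch keeps it silent on dox and active after dox is withdrawn. Whole hippocampus came from wild-type mice (n = 2 arrays), from VP16-CREB (VC) mice kept on dox (n = 1), and from VC mice at 1 week (n = 2), 2 weeks (n = 2) and 5 weeks (n = 1) off dox. A further VC pool, called reversed, had 3 weeks of transgene expression and then 2 weeks of renewed dox (n = 1). The CA1 subfield was microdissected from VC mice 3 weeks off dox (n = 2) and from wild-type mice (n = 1). Wild-type and on-dox hippocampus together are called never-induced (n = 3), and the 1, 2 and 5 week samples induced (n = 5). Hippocampal samples pooled 6 to 10 mice. The sources used here do not give the promoter that drives the transgene, nor the age and strain of the mice.

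Ribosomes consist of a small subunit, which binds the mRNA and reads its codons, and a large subunit, which forms the peptide bonds. Each subunit holds ribosomal RNA and one copy of most of its proteins, so the proteins are needed in matched amounts, and many of their mRNAs begin with a run of pyrimidines through which nutrient and mTOR signals set their translation. In neurons the mRNAs of ribosomal proteins are abundant and are found in dendrites as well as in cell bodies. Many ribosomal protein genes have processed pseudogenes, so a short probe can also match related sequences.

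Because the transgene is a form of CREB, the start regions of the members were searched for the sequence that CREB binds. The windows below run from 100 bases before to 25 bases after the start of transcription and are shown for 2 genes that passed the test between the regions in opposite directions, for Rps27, which passed it and has a core site on either side of its start, and for the member with the largest positive regional difference that missed the threshold. They are from RefSeq, build GRCm38.p6, 5′ to 3′ on the strand of the gene, and capitals mark each core site (TGACG or its reverse complement CGTCA).
Rplp0, chr5:115559367-115559491, plus strand: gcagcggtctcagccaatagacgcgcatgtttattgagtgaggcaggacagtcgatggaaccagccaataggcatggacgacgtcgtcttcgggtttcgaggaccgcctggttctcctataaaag
Rpl41, chr10:128549144-128549268, minus strand: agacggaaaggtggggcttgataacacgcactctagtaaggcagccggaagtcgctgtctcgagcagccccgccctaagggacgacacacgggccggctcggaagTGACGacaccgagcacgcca
Rps27, chr3:90213624-90213748, minus strand: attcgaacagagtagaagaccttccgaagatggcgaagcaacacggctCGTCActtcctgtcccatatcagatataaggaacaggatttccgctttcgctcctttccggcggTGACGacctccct
Rps18, chr17:33955641-33955765, minus strand: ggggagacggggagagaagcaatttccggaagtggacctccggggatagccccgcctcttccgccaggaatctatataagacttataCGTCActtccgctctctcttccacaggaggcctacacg

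In full windows of 250 bases before to 50 after the start, 27 of the 34 genes had 36 start regions. Windows for Rpl7, Rpl8, Rpl32, Rps14, Rps20, Rps29 and Rps4l were not used here. None of the 36 windows held the full element TGACGTCA, which 1.79% of the 32851 windows of all genes held. The core site, which is also part of the full element, stood in 13 windows (36.1%) against 20.8% of all windows, searched on both strands. Rplp0 had a core site in its full window, though none lay in the shorter window shown above. The ETS core CGGAAG or CTTCCG stood in 19 windows (52.8%) against 16.9%, also on both strands. An uninterrupted run of 8 or more pyrimidines on the sense strand, within 50 bases of the start, was found in 24 windows (66.7%) against 35.7%. These are matches of letters and not measured binding.

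Levels are given as log2 of intensity after each array was rescaled to one trimmed mean, and a difference of 1 is a doubling. A level is never compared between genes, because probe sets differ in brightness for the same amount of RNA. A mean lower level in a tissue sample cannot separate fewer cells of a type from less RNA per cell. On the transgene check, the Creb1 probe set that best separated the samples read 8.31 to 9.63 on the induced hippocampal arrays against 6.04 to 6.33 on the never-induced ones and 7.10 on the reversed one. In CA1 the VC arrays read 8.86 and 9.56 and the wild-type array 6.04. Another Creb1 probe set read 8.14 to 9.15 on induced and 6.36 to 7.66 on never-induced hippocampal arrays, but only 7.69 on VC CA1 array 1. A dimmer one, under the filter, overlapped between induced (6.08 to 7.53) and never-induced hippocampus (6.04 to 7.19). The reversed sample is called transgenic in its title and wild type in its description, and it was kept apart. Before rescaling, 8 hippocampal arrays had a trimmed mean of 3002, while wild-type hippocampus array 1 and all 3 CA1 arrays had one of 500.3 to 500.4, so the deposited scale and the region can hardly be told apart. VC CA1 array 2 had the lowest maximum of all arrays (14.45) and the lowest 99th percentile (13.68). Those 2 values reached 15.04 or more and 13.82 or more on the other arrays. The log2 ratio of a 3′ to a 5′ control is a sign of RNA or labelling quality. For pyruvate carboxylase it was 2.30 to 2.75 on the CA1 arrays and 1.05 to 1.92 on the hippocampal ones. That ratio and the region cannot be told apart. VC CA1 array 2 had the lowest Gapdh (−0.26) and actin (0.48) ratios of all arrays. The part of RNA quality in the regional differences was not tested.

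Under the filter lay 10 members, which were above the median of their array on fewer than 2 arrays. They were Rpl32, Rpl35a, Rpl38, Rpl39 and Rpl7l1 of the large subunit, the small-subunit genes Rps14, Rps15 and Rps20, and the paralogs Rpl39l and Rps27l. Over all 12 arrays their levels ran from the floor of 6.04 to 8.55, the highest being Rpl7l1, a nucleolar relative of Rpl7, in CA1. They have no test here. The stalk partners Rplp1 and Rplp2, the S6 kinase target Rps6 and the ubiquitin fusion gene Rps27a had no probe set with a single symbol and were not analysed here.

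The regional comparison asked which ribosomal protein mRNAs differed between CA1 and whole hippocampus, as the mean of the wild-type CA1 minus never-induced and the VC CA1 minus induced hippocampus differences. In limma's test 6 of the 24 members passed an adjusted p of 0.05, 2 higher and 4 lower in CA1. Of all tested probe sets 11.4% passed as higher and 24.5% as lower. The members' shares were 8.33% and 16.7%, so with this rescaling they were called no more often than the rest of the array. With arrays rescaled to one median the split turned to 9 higher and 1 lower. There 41.7% of the members passed and 38.3% of all tested probe sets. With quantile normalization it was 6 higher and 2 lower, 33.3% of the members against 30.6% of all tested probe sets. With one trimmed mean the members' median difference was 0.17 and that of all tested probe sets −0.13. Of the members 14 lay above 0 and 10 below. Rescaling to one median shifted these medians to 0.46 and 0.15. Without VC CA1 array 1 the members' median was −0.0017, and without VC CA1 array 2 it was 0.11. At an unadjusted p under 0.05 in limma stood 11 of the 24 members and 3331 of the 7069 tested probe sets.

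**Figure D1:**
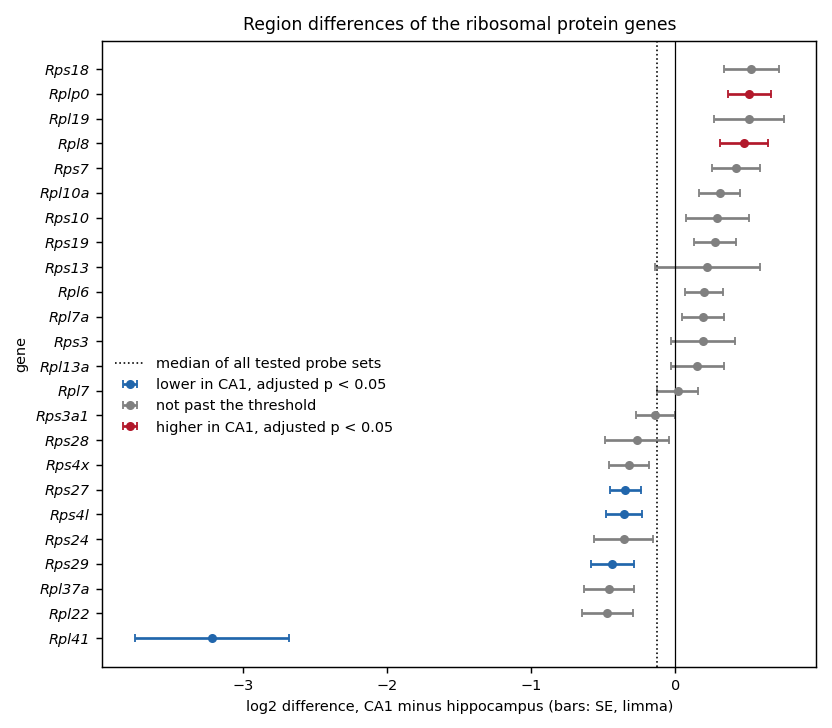
Difference between CA1 and hippocampus for each tested ribosomal protein gene on the log2 scale (points, with the standard error of limma), ordered by size, with genes past adjusted p 0.05 in colour. Rplp0 and Rpl8 lie to the right and Rpl41, at −3.22, far to the left of the other members. With arrays rescaled to one median 9 genes were called higher and 1 lower, where 38.3% of all tested probe sets passed. On the deposited scale every gene lay left of 0.

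In the large subunit, 2 of 11 members were higher and 1 lower in CA1, and the median difference was 0.19. Of all tested probe sets 11.4% passed as higher and 24.5% as lower. Rplp0 encodes the protein that anchors the stalk on which translation factors are recruited. It read 13.41, 13.60 and 13.91 in hippocampus (lowest, median and highest of 9 arrays), and in CA1 14.15 (wild type), 14.38 (VC 1) and 13.94 (VC 2). All 3 CA1 arrays lay above all 9 hippocampal arrays, by a small margin for the second VC array. The difference was 0.51 ± 0.15 (SE), 1.43-fold, with an adjusted p of 0.02293 in limma. Within CA1 and within hippocampus the groups were close, at 13.56 ± 0.14 (SD, n = 3) in never-induced and 13.73 ± 0.19 (SD, n = 5) in induced hippocampus.

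Rpl8, a protein close to the catalytic centre of the large subunit, read 13.45, 13.69 and 14.04 in hippocampus (lowest, median and highest). The wild-type CA1 array read 14.20 and the VC arrays 14.51 and 14.04. The lowest CA1 array lay only just above the highest hippocampal array. The difference of 0.48 ± 0.17 (1.39-fold) passed narrowly (adjusted p = 0.0448, limma). For both genes the sign turned on the values as deposited, without rescaling, to −1.64 for Rplp0 and −1.68 for Rpl8.

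Rpl41 stood apart from all other members. It encodes a very short, basic peptide of the large subunit that lies at the interface of the subunits. The probe set read between 15.08 and 15.95 on the 9 hippocampal arrays, with a median of 15.54, and 13.71 in wild-type CA1, 12.59 in VC CA1 array 1 and 9.36 in VC CA1 array 2. Every CA1 array lay below every hippocampal array, and the CA1 arrays spanned more than 4 log2 units among themselves. The difference was −3.22 ± 0.53, or 9.31-fold lower in CA1 (adjusted p = 0.001803, limma).

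The size of that difference rested on the VC arrays. It was −4.03 without VC CA1 array 1 and −2.41 without VC CA1 array 2. Wild-type CA1 against never-induced hippocampus alone gave −1.86 and did not pass (adjusted p = 0.1748, limma), while VC CA1 against induced hippocampus gave −4.58 (adjusted p = 0.001739). A block for the deposited scale gave −2.99 (adjusted p = 0.1107), and among the arrays of the lower deposited scale alone, which leaves 1 wild-type CA1 array against 1 wild-type hippocampal array, it was −1.67. The probe set's name ends in _f_at, a suffix for probes that can match a family of related sequences, so the signal is not certain to be Rpl41 alone.

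The other large-subunit members did not pass. Rpl22, an RNA-binding protein of the large subunit, differed by −0.48 ± 0.18 (adjusted p = 0.05814, limma). Rpl37a, a zinc-binding protein, read 13.25 to 13.61 in hippocampus and 13.23, 13.13 and 12.29 in the CA1 arrays, and its difference of −0.46 ± 0.17 missed the threshold (adjusted p = 0.0596, limma) although the regions did not overlap. Rpl19, which helps to bridge the subunits, differed by 0.51 ± 0.24 (adjusted p = 0.1241), and Rpl10a by 0.31 ± 0.14 (adjusted p = 0.1134). Rpl6, Rpl7, Rpl7a and Rpl13a differed by 0.01 to 0.20.

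In the small subunit 3 of 13 members were lower in CA1 and none higher, with a median difference of −0.14. The share of all tested probe sets was 24.5% lower and 11.4% higher, and the subunits were not tested against each other. Rps27 encodes a zinc-finger protein of the small subunit. It read 10.95, 11.04 and 11.16 in hippocampus (lowest, median and highest) and 10.61, 10.86 and 10.67 in CA1 (wild type, VC 1, VC 2). The hippocampal arrays spanned a narrow range and all CA1 arrays lay under it. The difference was −0.35 ± 0.11, 1.27-fold lower (adjusted p = 0.02915, limma).

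Rps29, a small zinc-binding protein near the mRNA channel, read 8.75, 9.14 and 9.38 in hippocampus and 8.84, 8.54 and 8.57 in CA1. Wild-type CA1 overlapped the lowest hippocampal array, a 2 week sample. The difference was −0.44 ± 0.15, 1.35-fold lower (adjusted p = 0.04322, limma). Rps4l, a paralog of Rps4x, read 10.37, 10.60 and 10.86 in hippocampus and 10.37, 10.31 and 10.21 in CA1, where the highest array lay just under the lowest hippocampal one. Its difference was −0.36 ± 0.12, 1.28-fold lower (adjusted p = 0.04621, limma). The probe set's name ends in _s_at, a suffix for probes shared between transcripts, so the signal is not certain to be Rps4l alone. For all 3 genes the call was lost with one median (−0.07 for Rps27, −0.15 for Rps29 and −0.07 for Rps4l) and also with quantile normalization (−0.30, −0.18 and −0.28), with the sign kept.

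Rps18, which sits in the head of the small subunit near the tRNA sites, had the largest positive difference of all members. It read 13.62, 13.88 and 14.32 in hippocampus and 14.55, 14.70 and 14.06 in CA1. The second VC array fell within the hippocampal range while the other CA1 arrays lay above it. The difference of 0.53 ± 0.19 just missed the threshold (adjusted p = 0.05275, limma), and passed with quantile normalization (0.77) and with one median (0.81). Rps7, needed for the processing of ribosomal RNA, differed by 0.42 ± 0.17 (adjusted p = 0.07007), and Rps4x by −0.32 ± 0.14 (adjusted p = 0.09425). The other 7 members of the small subunit, Rps3, Rps3a1, Rps10, Rps13, Rps19, Rps24 and Rps28, differed by −0.36 to 0.29.

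**Figure D2:**
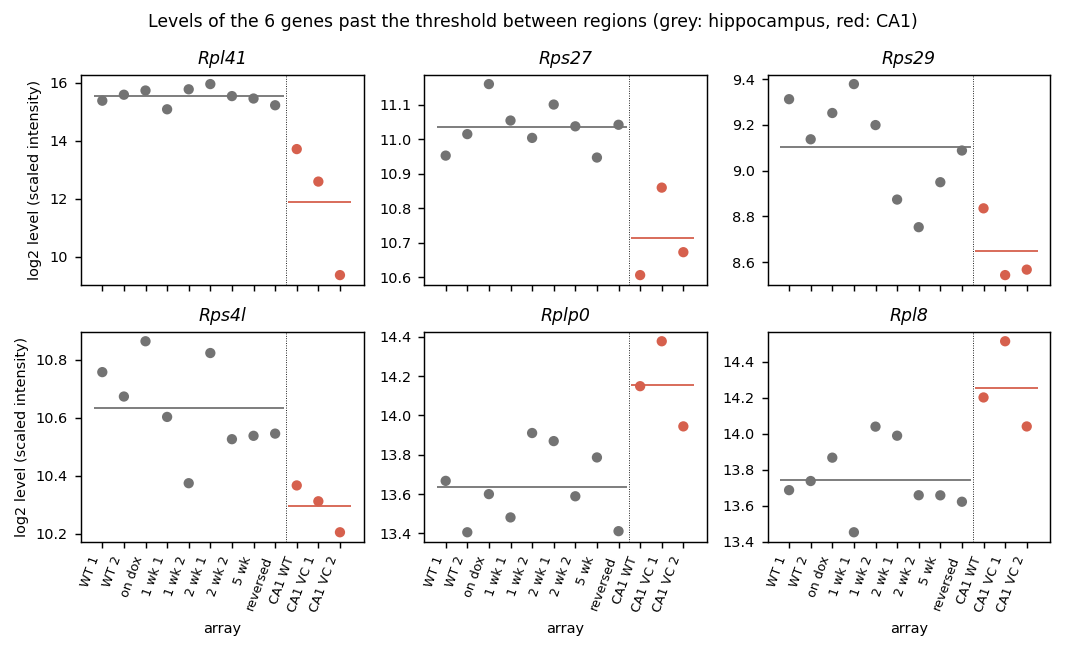
Log2 level on each of the 12 arrays for the 6 genes past adjusted p 0.05 between the regions (grey points hippocampus, red points CA1, lines the mean of each region; each panel has its own vertical axis). Rpl41 falls to 9.36 on VC CA1 array 2, and wild-type CA1 at 8.84 overlaps the hippocampal range for Rps29; without rescaling, Rplp0 and Rpl8 are lower in CA1.

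By the count of arrays, 2 members lay above all 9 hippocampal arrays on all 3 CA1 arrays (Rplp0 and Rpl8), 8.33% of the members, where 7.61% of all tested probe sets did. Below all of them lay 4 (Rpl37a, Rpl41, Rps27 and Rps4l), 16.7% of the members against 16.8% of all tested probe sets. The members were thus as often apart between the regions as the array in general.

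Calls between the regions depended on single arrays. The count of 6 fell to 1 without wild-type hippocampus array 2, to 2 without the on-dox array and to 3 without wild-type array 1 or without the 5 week array. Of all tested probe sets 35.9% passed with every array, and 29.4%, 29.6%, 30.7% and 34.9% in these 4 cases. Once the deposited scale was a block, none of the 24 members passed, and 4.07% of all tested probe sets did. Wild-type CA1 against never-induced hippocampus alone called 0 of the 24 members, where 11.7% of all tested probe sets passed.

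Other probe sets of the same genes did not always follow the brightest one. For Rps28, a protein at the exit of the mRNA channel, the brightest probe set differed by −0.27 ± 0.22 and did not pass. A dimmer one read 6.62, 8.23 and 8.47 in hippocampus (lowest, median and highest) and 10.23, 10.06 and 7.62 in CA1, a difference of 1.66. Of the CA1 arrays, VC array 2 lay within the hippocampal range on that probe set. It was above the array median on 2 CA1 arrays and 0 hippocampal arrays, so it was tested only through the region where it is high, and its difference is a description with no test. Another probe set of Rps28 differed by 0.06 ± 0.21.

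Rpl22 and Rps4x each had a dimmer probe set that read lower on the CA1 arrays than on all hippocampal arrays. That of Rpl22 read 8.42 to 9.37 in hippocampus and 7.22, 6.77 and 7.55 in CA1, a difference of −1.69. That of Rps4x, an X-linked gene, read 7.56 to 8.90 in hippocampus and 6.04, 6.38 and 6.95 in CA1. The difference was −1.95, with wild-type CA1 at the floor. These probe sets came through the filter on 6 (Rpl22) and 2 (Rps4x) hippocampal arrays and on 0 CA1 arrays, so their differences are likewise a description. In both genes the dimmer and the brightest probe set had the same sign and differed in size. The second tested probe set of Rpl10a differed by 0.14 ± 0.21. A further 39 probe sets carried ribosomal protein symbols among several symbols and belong to no single gene; 34 of them were tested, 2 passed as higher and 5 as lower, and their median was −0.05.

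Within hippocampus most members shifted to the same side of their own mean on some arrays. At 1 week, 19 of 24 members lay below their hippocampal mean on array 1 and 21 of 24 above it on array 2, although both arrays belong to the same group. The median of the members relative to the hippocampal mean was −0.16 on the first and 0.28 on the second of these arrays. The members on the other side were Rpl22, Rps13, Rps19, Rps27 and Rps29 on array 1, and Rps13, Rps27 and Rps4l on array 2. Array 1 at 2 weeks had 19 members above the mean (median 0.18), and the reversed array 19 below it (median −0.12). Rps19 and Rps27 were each on the minority side on 3 of these 4 arrays. On the other 5 hippocampal arrays between 6 and 14 members lay above their mean.

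The brightness of the upper end of the array differed between these arrays too. The 99th percentile of all values was 13.82 on array 1 at 1 week, 14.13 on array 2 at 1 week, 14.16 on array 1 at 2 weeks and 13.86 on the reversed array. The log2 ratio of the 3′ to the 5′ Gapdh control, a sign of RNA or labelling quality, was −0.20 on array 1 and 0.38 on array 2 at 1 week. For actin it was 0.85 and 1.49 on these arrays, the lowest and the highest in hippocampus. For pyruvate carboxylase it was 1.05, the lowest in hippocampus, and 1.76. Wild-type array 1 had the highest Gapdh ratio (0.44) with 17 of 24 members below their mean. Array 2 at 2 weeks had a Gapdh ratio of 0.36 with 18 below. Actin and pyruvate carboxylase were 1.31 and 1.29 on wild-type array 1, and 1.37 and 1.92 on array 2 at 2 weeks. The median of all tested probe sets lay between −0.02 and 0.02 relative to its hippocampal mean on all 9 hippocampal arrays. The part of array brightness and RNA quality in the members' shifts was not tested.

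**Figure D3:**
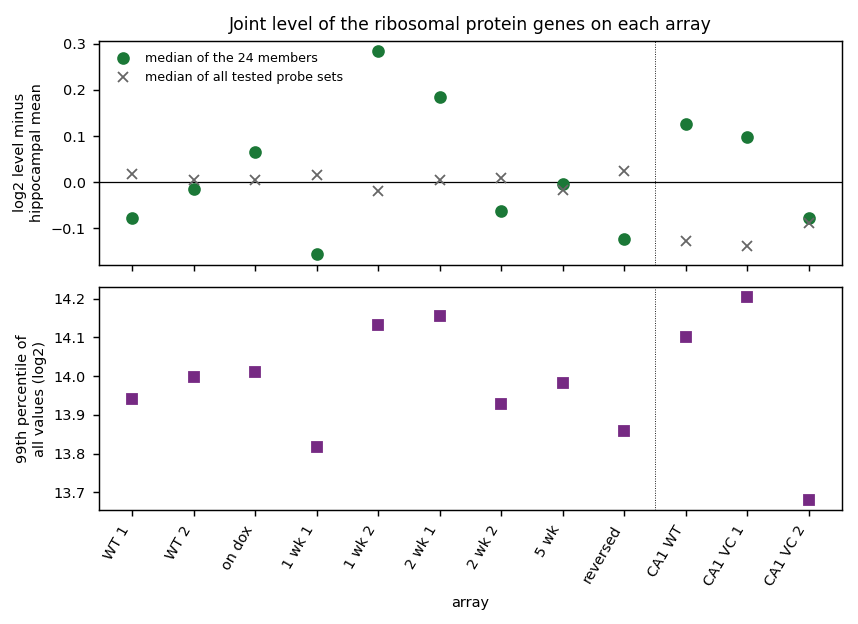
For each array, the median of the 24 members and of all tested probe sets relative to the hippocampal mean (upper panel, log2 difference), and the 99th percentile of all log2 values (lower panel). The members' median spans −0.16 to 0.28 between the arrays of the 1 week group, and their 99th percentiles are 13.82 and 14.13.

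**Figure D4:**
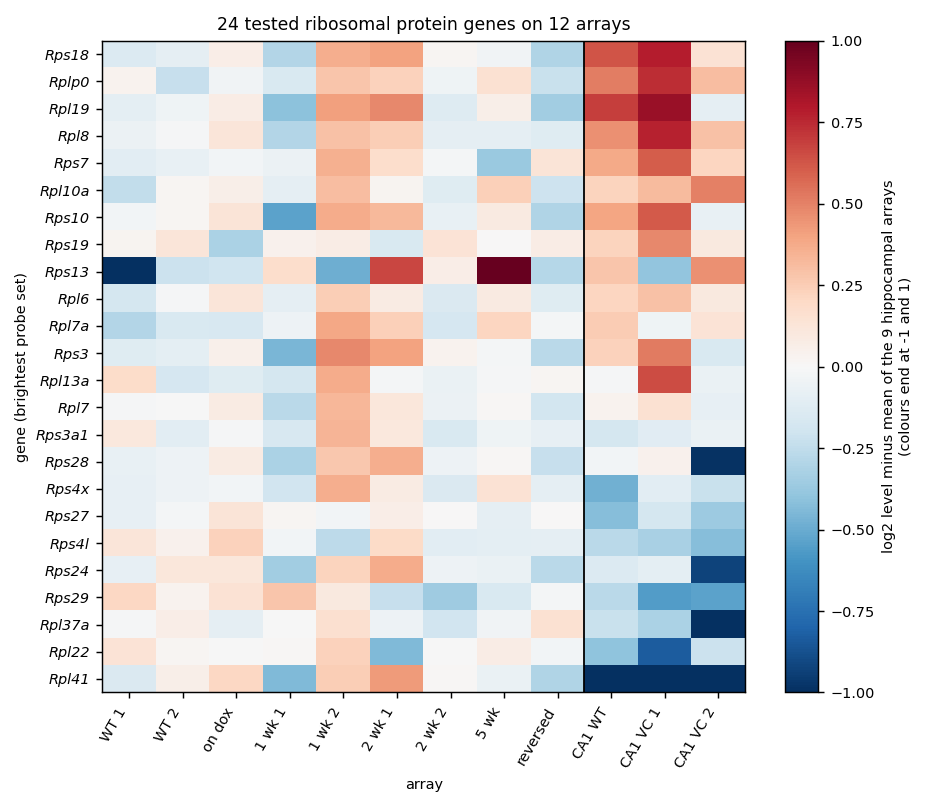
Log2 level of each tested ribosomal protein gene on each array minus its mean over the 9 hippocampal arrays, with genes ordered by their regional difference and a line between hippocampus and CA1. Most members are pale blue on array 1 and red on array 2 at 1 week, and Rpl41 is at the end of the blue scale on all 3 CA1 arrays.

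VP16-CREB induction in whole hippocampus moved none of the tested ribosomal protein genes past the threshold. In limma 0 of 24 members passed, against 0.0283% of all tested probe sets as higher and 0% as lower. An unadjusted p under 0.05 was reached by 1 member and by 223 of the 7069 tested probe sets. The median difference of the members was 0.06 and that of all tested probe sets −0.02, with 15 members above 0 and 9 below. The members' median rested on single arrays: it was −0.0019 without array 2 and 0.11 without array 1 at 1 week, and 0.02 without array 1 at 2 weeks. By the count of arrays 0 members separated all 5 induced from all 3 never-induced arrays, where 1.71% of all tested probe sets lay higher and 1.66% lower without overlap.

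Rpl7a, a large-subunit protein that contacts the ribosomal RNA, was the member with an unadjusted p under 0.05. It read 12.79 and 12.93 in wild type and 12.92 on dox, then 13.03 and 13.47 (1 week), 13.33 and 12.92 (2 weeks) and 13.30 (5 weeks). One array at 2 weeks lay within the never-induced range and the other induced arrays above it. The difference was 0.33 ± 0.15 (adjusted p = 0.9993, limma).

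Rps13, a small-subunit protein that binds ribosomal RNA early in assembly, had the largest value. It read 7.12 and 7.91 in wild type and 7.93 on dox, 8.30 and 7.64 (1 week), 8.80 and 8.19 (2 weeks), 9.41 (5 weeks) and 7.84 (reversed). The wild-type CA1 array read 8.41 and the VC CA1 arrays 7.73 and 8.58. The 5 week array was the highest of all, and 1 array of the 1 week group lay within the never-induced range. The difference over all induced arrays was 0.81 ± 0.37 (adjusted p = 0.9993, limma). The probe set's name ends in _r_at, a suffix for probes picked under relaxed rules, and its spread over the hippocampal arrays (SD 0.66) was the widest among the tested members. It was above the array median on 2 of 9 hippocampal and 2 of 3 CA1 arrays.

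The remaining members differed by less. Rplp0 differed by 0.17 ± 0.15, Rps3 by 0.15 ± 0.23 and Rps18 by 0.14 ± 0.20. On the other side stood Rps29 at −0.20 ± 0.15, Rps4l at −0.19 ± 0.13 and Rpl22 at −0.08 ± 0.18. Rps24 and Rps27 were closest to 0 among those below it that were named, at −0.02 ± 0.21 and −0.01 ± 0.11.

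Split by time, 0 of 24 members passed in limma at 1, 2 and 5 weeks. The background was 0.0283% higher and 0% lower at 1 week, 0.156% and 0% at 2 weeks, and 0.863% and 0.127% at 5 weeks. Of the members, 0, 2 and 1 had an unadjusted p under 0.05, as did 354, 315 and 516 of the 7069 tested probe sets. The members' medians were 0.08, 0.05 and 0.03. These medians changed size or sign with single arrays. The 1 week median was 0.30 without its array 1, −0.14 without its array 2 and 0.05 without either wild-type array. The 2 week median was −0.06 without its array 1, 0.18 without its array 2 and 0.10 without the on-dox array. The 5 week median was 0.01 without any one of the 3 never-induced arrays. At 1 and 2 weeks the sign of the members' shift thus depended on which of the group's arrays was used. At 1 week the values farthest from 0 were 0.37 ± 0.19 for Rpl7a and −0.28 ± 0.16 for Rps4l. At 2 weeks Rps13 stood at 0.84 ± 0.37 and Rps29 at −0.42 ± 0.15 (adjusted p = 0.8969). The single array at 5 weeks put Rps13 at 1.75 ± 0.46, or 3.37-fold, with an adjusted p of 0.2288. Beyond Rps13, the 5 week values ran from −0.30 for Rps7 to 0.42 for Rpl7a. The 3 times share their never-induced arrays.

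**Figure D5:**
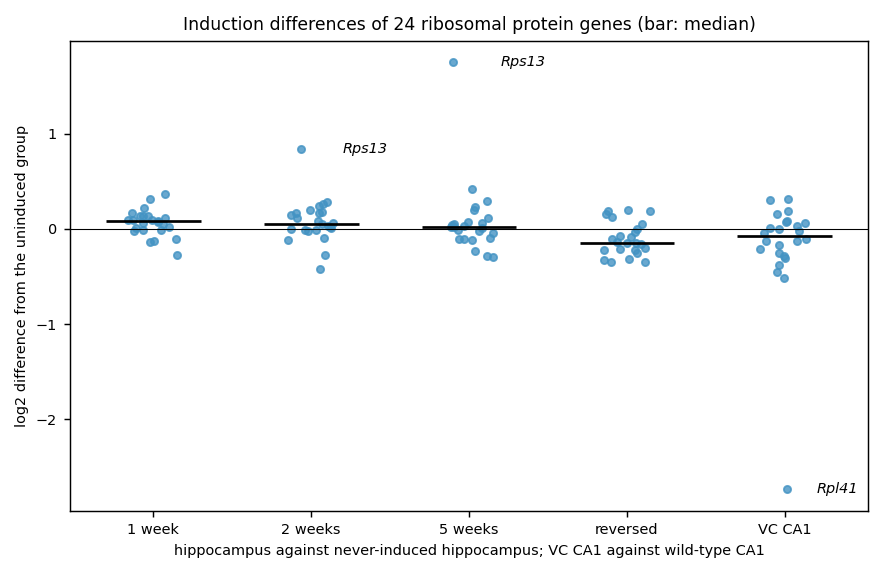
Log2 differences of the 24 members from the uninduced group at 1, 2 and 5 weeks off dox, after reversal and in VC CA1 (points, one per gene; bar, the median). Most points lie within 0.5 of 0; Rps13 at 5 weeks (1.75) and Rpl41 in VC CA1 (−2.73) stand apart, and neither passed the test.

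After reversal 0 of 24 members passed against never-induced or against induced hippocampus (limma, background 0% in either direction). An unadjusted p under 0.05 was found for 0 members in either comparison, and for 180 and 181 of the 7069 tested probe sets. The median was −0.14 against never-induced hippocampus, with 18 members below 0, and −0.15 against induced hippocampus, with 19 below. With quantile normalization these medians were −0.01 and −0.03. The values farthest from 0 against never-induced hippocampus were −0.34 ± 0.35 for Rps10 and 0.20 ± 0.27 for Rps7. Against induced hippocampus they were −0.63 ± 0.56 for Rps13 and 0.17 ± 0.27 for Rpl37a. Both comparisons rest on 1 reversed array.

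In CA1, the comparison of VC with wild type called 0 of 24 members in limma, where 0.382% of all tested probe sets passed as higher and 0.0849% as lower. The members' median was −0.08, with 10 above 0, and turned to 0.09 with quantile normalization and to 0.10 without VC array 2; without VC array 1 it was −0.16. Among the members only Rpl41 had an unadjusted p under 0.05, where 708 of the 7069 tested probe sets did. Its difference was −2.73 ± 0.92 (adjusted p = 0.3176, limma). Its VC arrays, at 12.59 and 9.36, were both below the wild-type array at 13.71. Without VC array 1 the difference was −4.35 (adjusted p = 0.001166, limma), and without VC array 2 it was −1.12 (adjusted p = 0.2988). The call thus appeared only where the VC group was the array with the lowest maximum.

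Below 0 stood also Rpl37a at −0.52 ± 0.30, Rps28 at −0.45 ± 0.38, Rps24 at −0.37 ± 0.35 and Rpl19 at −0.31 ± 0.42. For Rps28 the VC arrays read 14.89 and 13.86 against 14.82 in wild type, so that VC array 2 alone was low. Above 0 stood Rps4x at 0.32 ± 0.24, Rpl13a at 0.30 ± 0.31, Rpl10a at 0.18 ± 0.24 and Rps27 at 0.16 ± 0.19. The effect in CA1 minus that in hippocampus was tested as a difference of its own, and 0 of 24 members passed (limma; background 0.0566% higher and 0% lower). The median of that difference was −0.08 (−0.23 without VC CA1 array 1 and 0.06 without array 2). An unadjusted p under 0.05 was reached by 1 member, Rpl41 (−2.73 ± 1.07, adjusted p = 0.7823, limma), and by 411 of the 7069 tested probe sets. Without VC CA1 array 1, Rpl41 passed (−4.34, adjusted p = 0.003586, limma).

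Other parts of the translation machinery were read from lists of genes, none of which was tested as a set. The regional counts of each list stand beside 11.4% higher and 24.5% lower among all tested probe sets, whose median was −0.13. Mitochondrial ribosomal proteins, which build the separate ribosome of the organelle, had 57 tested genes between the regions, 4 higher and 9 lower, with a median of −0.09. Examples were Mrpl45 at 1.08 ± 0.23, Mrpl50 at −1.33 ± 0.31 and Mrps2 at −0.93 ± 0.13. Initiation factors had 28 tested genes, 3 higher and 5 lower, with a median of −0.21. Among them the helicase Eif4a2 was lower by 2.03-fold (−1.02 ± 0.19) and Eif3d, a subunit of the scaffold that joins mRNA and small subunit, higher by 1.48-fold (0.56 ± 0.12).

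Elongation factors and other genes whose mRNAs begin with a pyrimidine run had 14 tested genes, 2 higher and 4 lower, with a median of −0.37. Eef1a1 and Eef1a2, which deliver charged tRNAs, were lower in CA1 by −0.94 ± 0.23 and −1.41 ± 0.14. Eef1b2, a subunit of their exchange factor, is among the genes counted as higher. Its dim probe set, with a name ending in _r_at, read 6.81 to 8.47 in hippocampus and 9.67, 9.12 and 8.92 in CA1. It may have come through the filter only in the region where it is high, so its difference of 1.42 is a description. Ribosome biogenesis had 37 tested genes, 2 higher and 9 lower, with a median of −0.23. Among these the nucleolar proteins Ncl (−0.70 ± 0.15), Fbl (−0.76 ± 0.11) and Bop1 (−0.84 ± 0.18) were lower. Gar1 was among the genes called higher, at 11.20, 11.29 and 10.43 in CA1 against 10.16 to 10.59 in hippocampus. Of the S6 kinases and the mTOR pathway, 8 genes were tested and 2 were higher, Mtor at 0.51 ± 0.12 and Tsc2 at 0.61 ± 0.17. Rpsa, a ribosomal protein outside the symbol rule, differed by 0.04 ± 0.15. In these 6 lists no gene passed for induction in hippocampus or in CA1.

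Some markers of cell types passed between the regions too, where 11.4% of all tested probe sets were higher and 24.5% lower. Endothelial and pericyte markers were higher in CA1 for 4 of 5 tested genes, with a summed log2 level of 12.12 to 12.67 in CA1 and 11.42 to 12.03 in hippocampus. Choroid plexus markers were lower for 3 of 5, with sums of 12.23 to 12.64 and 12.26 to 13.98. General neuronal markers were lower for 3 of 4, with sums of 14.59 to 14.77 in CA1 and 15.00 to 15.46 in hippocampus. CA1 pyramidal cell markers were higher for 1 of 2, with sums of 12.07 to 12.41 in CA1 and 11.40 to 11.97 in hippocampus. Of the interneuron markers 2 of 5 were higher and 1 lower, and of the dentate granule cell markers 1 of 3 was lower. No defining marker of these lists was at the floor on every array. For microglia and macrophages 2 of 9 were higher and 1 lower, and in VC against wild-type CA1 all 9 tested genes had positive values (median 1.44) with 0 called. The part of cell composition in the regional values of the ribosomal protein genes was not tested.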

How the data were processed

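The deposited intensity values are linear. GCOS, the array maker's software, is named in the submitters' processing notes, and its version, algorithm and scaling were not given in the sources used here. Arrays were rescaled to one trimmed mean (2% off either end) of 1000, floored at the 20th percentile (65.7) and log2 transformed. Of 12422 probe sets that are not controls, 7069 lay above the median of their array on at least 2 arrays and were tested. Differences came from R 4.3.3 and limma 3.58.1 (lmFit with eBayes, two-sided, Benjamini-Hochberg over all tested probe sets, threshold 0.05), with 5 levels, or 7 for the separate times; a level of 1 array takes its error from the others. Scripts were tested on simulated data. The p-values measure spread between pooled samples, not mice, and the number of arrays limits precision. Symbols came from the platform annotation. Named were members past the threshold, filled up to 6 (regions), 5 (induction) or 3 (other comparisons) in each direction, plus members under the filter, paralogs and genes with disagreeing probe sets. From other lists at most 4 called genes were named. The members and lists were chosen with earlier results of these data known.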

Additional observations from a re-analysis of the deposited data

How the results depend on the processing

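The regional count of 6 called members (limma) of 24, where 35.9% of all tested probe sets passed, became 24 with the values as deposited (96.2% of all), 10 with arrays rescaled to one median (38.3%), 2 with 8 levels (27.2%) and 0 with the deposited scale as a block (4.07%). With the probe sets of several symbols added, 13 of 58 passed (22.4%, against 25% of the 24 members). Only arrays of the lower scale gave 0 members and 0 of all probe sets, since the region then rests on 1 array against 1, which says nothing of the members. The count was 2 for VC CA1 against induced hippocampus alone (19.5% of all) and 0 for wild-type CA1 alone (11.7%). These last 2 alternatives and the added probe sets were chosen after seeing the data. Leaving out single arrays gave 1 to 8 called members. The count of 1 came without wild-type hippocampus array 2 (29.4% of all tested probe sets) and that of 8 without array 1 at 2 weeks (36%). On the deposited values the signs of Rplp0 (−1.64), Rpl8 (−1.68), Rps18 (−1.63), Rpl19 (−1.64), Rps7 (−1.73) and Rpl10a (−1.85) were reversed, as the CA1 arrays were deposited at the lower scale. In the numbered arrays alone the replicate block left 1 called member (12.5% of all probe sets), and the same arrays without the block also 1 (14.4%). Deviations of arrays with the same number correlated between −0.23 and 0.20 across groups. The sample titles give the numbers without saying what they stand for, and whether arrays of one number shared a batch was not tested. With single arrays left out, the count for induction in CA1 was 0 to 1, and that for the difference of induction effects 0 to 1. Counts for induced hippocampus, the 3 times and both reversed comparisons were 0 under every alternative run. Whether the scale or the region sets the regional calls cannot be told apart, since only wild-type hippocampus array 1 shares the scale of CA1. Probe sets near the floor limit what can be said of the 10 members under the filter.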
